A study of Oryza sativa Japonica Group with 41 samples.

Results

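H3K9ac peaks of rice seedlings kept in darkness for 48 h were compared with those of seedlings grown under the normal light cycle. The members were the genomic regions obtained by merging the H3K9ac peaks of 2 control and 2 starved libraries wherever they overlapped by 1 bp or more. There were 24725 such regions, and the 4 libraries were 4 of the 27 in the series that have a peak list. Both groups were leaves, without root or endosperm, of 12-day-old seedlings of the cultivar DongJin collected at ZT12 (12 h after the lights came on), and they differed in the 48 h of continuous darkness that the study used as starvation. All seedlings grew on Murashige and Skoog medium without hormones. The series also holds profiles of butyryllysine (Kbu) and crotonyllysine (Kcr) for these conditions, H3K9ac after 6 h of submergence, and H3K9ac in 30-day-old plants at 4 times of day. Nothing in the labels says whether the 2 libraries of a group came from separately grown plants, so the p values measure the spread between these libraries, which may be technical. Leaves hold many cell types, and a lower share of cells with the mark cannot be told apart from less of the mark in each cell.

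Acetylation of lysine 9 on histone H3 is placed by histone acetyltransferases, which use acetyl-CoA, and is removed by histone deacetylases. In plants, the mark lies mostly over the promoter and the 5′ part of transcribed genes, and its level generally goes with transcription. Butyryl and crotonyl groups are longer acyl groups that are carried on lysines from their own CoA donors, so the supply of such metabolites has been of interest in plants that run short of sugar. Prolonged darkness stops photosynthesis and draws down the carbohydrate reserves of a leaf.

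MACS, the program with which the authors called peaks in each library, used 10581295 and 11985500 tags (mapped read positions) in the controls and 5631625 and 6480371 in the starved libraries, so the starved libraries were shallower. The fragment length that it modelled was 217 and 218 bp in the controls against 188 and 190 bp after darkness. The median called peak was 1486 and 1531 bp long in the controls and 1201 and 1251 bp in darkness, while the share of tags inside peaks was nearly even, from 43.1% to 44.4%. These differences cannot be told apart from the treatment in 4 libraries, and peaks were not called again at equal depth. Where the tags inside the called peaks were thinned to equal depth, an alternative chosen after seeing the data that leaves calls and called lengths as they were, 2827 regions were higher and 3437 lower. The tags of each library were counted only inside its own peaks, and a region without a peak in a library had no value there.

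H3K9ac changed in both directions after darkness. Of the 24725 regions, 19113 had a peak in all 4 libraries and could be tested. At an adjusted p under 0.05 (Benjamini-Hochberg) in the quasi-likelihood test of edgeR, 3497 regions rose (18.3% of those tested) and 3987 fell (20.9%). The changes were mostly small, since 64.2% of the called regions changed by less than 1.5-fold. The median log2 fold change was 0.42 among the regions that rose and −0.55 among those that fell, which the calling itself selects. Over all tested regions the median absolute log2 fold change was 0.23. The median absolute difference between replicates, over the same regions and scale, was 0.086 in the controls and 0.092 in the starved libraries. The number of calls depended strongly on the tool, because DESeq2 called 415 higher and 1129 lower. It also depended on the scale, as these directions are relative to the bulk of the regions. Scaled by total aligned reads, 43 regions were higher and 4907 lower and the median of all regions moved to −0.57. An offset for called length gave 9746 higher and 553 lower, with a median of 0.29. Without starvation replicate 2, 2180 regions rose and 2938 fell. Leaving out each library in turn, 49.2% of the rises and 60.8% of the falls were called every time.

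A stricter rule asked for more than 1.5-fold in both replicate pairs, on levels given as RPM (tags per 1000000 tags that MACS used). By this rule 709 regions were higher (3.71%) and 1302 lower (6.81%). Of these, 707 and 1299 were also called by edgeR in the same direction. The 20 regions described next, 10 for each direction, had the largest log2 fold changes among those that met both criteria. A gap between the groups is thus part of how they were chosen. Over all tested regions, both starved libraries lay above both controls in 37.6% and below both in 37.3%, on the scale of the edgeR test. No annotation on the coordinates of the peak lists was used, so regions are given by position in the MSU7.0 rice genome and no gene is named.

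The 10 strongest rises were short peaks in the controls that became long ones. Their log2 fold changes lay between 1.94 and 2.77, their controls held 40 to 155 tags and the starved libraries held 132 to 437. The called length ran from 722 to 1793 bp in the controls and from 1978 to 5386 bp in darkness. The largest rise was at chr9:10740295-10743992, where the controls had 5.76 and 4.84 RPM and the starved libraries 38.5 and 35.6 (log2 fold change 2.77 ± 0.10 SE, edgeR adjusted p = 1.38e-05). Both starved libraries stood far above both controls, and the peak had spread from 1092 and 1026 bp to 3698 and 3638 bp.

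A region at chr3:31633518-31637824 went from 9.64 and 9.59 to 54.2 and 55.2 RPM (2.47 ± 0.06 SE, edgeR adjusted p = 7.03e-06). Its called length was 1743 and 1736 bp in the controls and 4067 and 4307 bp in darkness. The replicates of each group nearly coincided there. Chromosome 6 held 4 of the 10 regions, of which chr6:20849047-20854023 had the highest level, 13.9 and 12.9 RPM in the controls and 68.4 and 67.4 after darkness (2.30 ± 0.06 SE, edgeR adjusted p = 7.03e-06). There the summit enrichment, the fold of the peak's highest point over its local background, went down from 7.96 and 8.98 to 5.81 and 6.30 while the tag count went up (limma adjusted p = 0.00293). Replicates were least alike at chr8:4610341-4612918, with 3.78 and 6.34 RPM in the controls and 24.5 and 25.8 in the starved libraries.

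The 10 strongest falls were the mirror image, long domains of which a short core was left. Their log2 fold changes lay between −3.42 and −2.47. The controls held 522 to 1045 tags over 3427 to 6259 bp and the starved libraries 29 to 94 tags over 696 to 1884 bp. At chr5:27118641-27123093 the controls had 52.7 and 53.9 RPM and the starved libraries 5.33 and 4.94 (−3.42 ± 0.09 SE, edgeR adjusted p = 7.03e-06). The called length went from 3856 and 4453 bp to 750 and 752 bp there.

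At chr2:27471537-27476967 the level went from 63.4 and 64.1 to 6.75 and 7.72 RPM (−3.17 ± 0.08 SE, edgeR adjusted p = 7.03e-06). The largest region by starting level was chr7:23095555-23100569, which had 86.2 and 87.2 RPM in the controls and 15.6 and 14.5 in darkness (−2.56 ± 0.07 SE, edgeR adjusted p = 7.03e-06). In each of the 10 regions both starved libraries were below both controls, which the choice by fold change brings about. Their summit enrichment hardly moved, with log2 differences from −0.47 to 0.11, of which 1 passed the limma test. Per kb of called peak the log2 fold changes of the falls were smaller, from −1.14 to −0.39, and those of the 10 rises from 0.41 to 1.37.

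**Figure D1:**
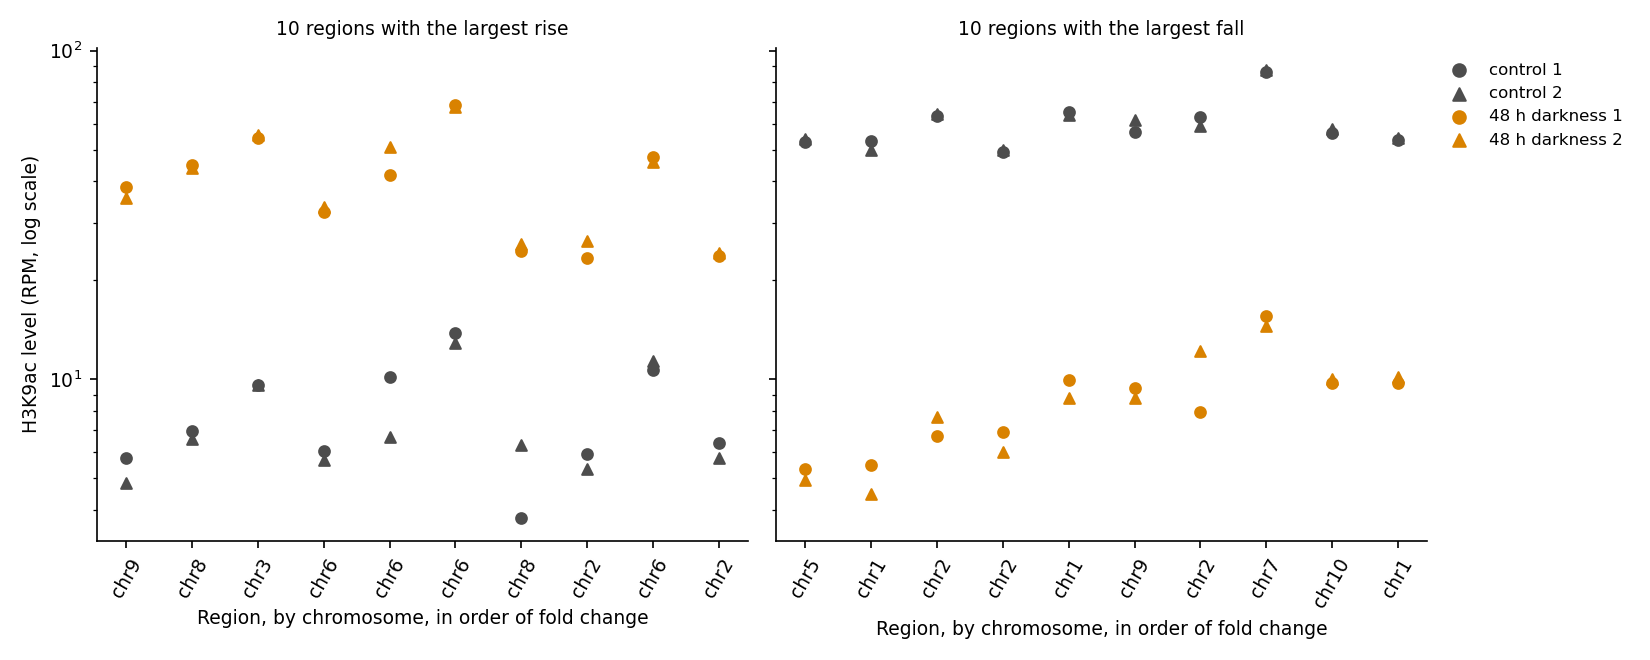
H3K9ac level (RPM, log scale) in each of the 4 libraries, for the 10 regions with the largest rise (left) and the 10 with the largest fall (right), labelled by chromosome and ordered by fold change. Each point is 1 library. The regions were chosen for large fold changes, so the starved libraries (orange) lie on one side of the controls (grey) in each. The largest rise has 35.6 and 38.5 against 4.84 and 5.76.

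By tag sums, falls were frequent among wide peaks and rises among narrow ones. Among the 353 tested regions whose called length averaged over 4 kb in the controls, 259 fell (73.4%, against 20.9% of all tested regions) and 24 rose (6.80%, against 18.3%), and their median log2 fold change was −0.67. Between 3 and 4 kb, 356 of 636 regions fell and 68 rose. Between 2 and 3 kb, 1126 of 2837 fell and 386 rose. The order turned around below 1.5 kb, where 901 of 8137 regions of 1 to 1.5 kb fell and 1697 rose. Under 1 kb, 3 of 352 regions fell and 128 rose, with a median log2 fold change of 0.33. These shares leave out the 1646 regions with a peak in both controls and in neither starved library. Such regions had a median called length of 1263 bp in the controls. A narrow peak that lost its call in darkness is thus not counted as a fall, and the filter favours rises among narrow peaks. DESeq2, with far fewer calls, gave falls in 55.2% of the regions over 4 kb and in 1.25% of those of 1 to 1.5 kb. With the tags thinned, the median log2 fold change was −0.68 over 4 kb and 0.34 under 1 kb. With called length as an offset the calls over 4 kb turned around, to 40.8% higher and 13.0% lower, and in those of 3 to 4 kb 9.28% were lower, fewer than were higher. Under that offset 55.7% were higher and 0.57% lower under 1 kb, and the shift of all regions by 0.29 is part of these shares.

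A like gradient was seen when width and change came from different libraries. With the width taken from control replicate 1 and the change from the replicate 2 pair, the median log2 ratio was −0.69 for the 333 regions over 4 kb and 0.25 for the 534 regions under 1 kb. With the replicates exchanged, these values were −0.61 and 0.26, in 408 and 333 regions. Both arrangements still cover only regions with a peak in all 4 libraries. Narrow control peaks without a call in darkness are left out of each, so the split does not remove that selection. Between the 2 controls, in the same order, the median log2 ratio was −0.003 and −0.02 over 4 kb, and 0.11 and 0.03 under 1 kb. The median log2 fold change of Kbu also went down with H3K9ac width, from 0.11 under 1 kb to −0.27 over 4 kb.

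The falls went together with a shortening of the called peak. Regions that fell were 1882 bp long in the controls and 1248 bp in darkness (medians), those that rose 1483 and 1356 bp, and those not called 1504 and 1229 bp. The peak was more than 1.5 times shorter in darkness in 45.7% of the falls, 5.58% of the regions not called and 0.37% of the rises. Among regions over 3 kb, the falls went from a median of 3807 to 2100 bp, the regions not called from 3480 to 2906 bp, and the 92 rises from 3384 to 3606 bp. These classes come from the same 4 libraries, and tags were counted only inside the called length, so tag sum and length are not independent.

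The mean density inside the peak moved less than the tag sum. The median log2 fold change per kb of called length was 0.56 in rises, 0.29 in regions not called and −0.03 in falls. Relative to the median of all tested regions, 93.1% of the rises were denser and 90.4% of the falls less dense. The classes were called on the same tags, so a density shift in the same direction is partly built in. Over 4 kb the median per kb was 0.16, or 0.13 below that of all regions, against 0.67 below for the tag sum.

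The strongest summit of a region lay a median of 75 bp from its control position in falls, 55 bp in rises and 53.5 bp in regions not called, against 23 to 32 bp between replicates of one group in these classes. Among regions over 3 kb the shift was 112.5 bp in falls, 167.75 bp in rises and 149.25 bp in regions not called, against 30 to 47 bp between replicates. With the median of each library removed, limma called summit enrichment higher in 2013 regions (10.5%) and lower in 2088 (10.9%). Without control replicate 1 these counts were 736 and 594, and without control replicate 2 they were 835 and 691. Without that centring 6611 were higher and 773 lower. Rising regions had a higher summit in 729 cases and a lower one in 256, and falling regions a lower summit in 859 and a higher one in 219. In regions over 4 kb the median change of the centred summit enrichment was 0.04 on the log2 scale while that of the tag sum was −0.67.

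**Figure D2:**
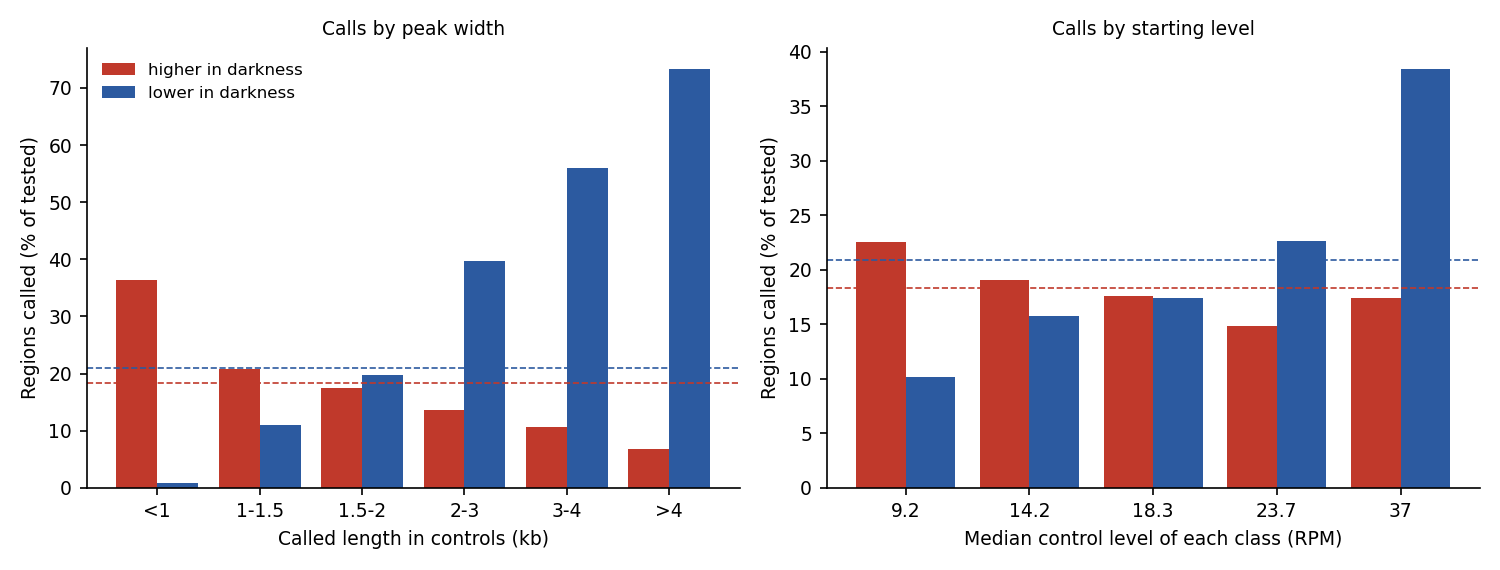
Share of tested regions called higher (red) or lower (blue) after darkness, by called length in the controls (left, kb) and by 5 equal classes of the control level (right, median RPM of each class). Dashed lines give the shares over all tested regions, 18.3% and 20.9%. Falls climb from 0.85% under 1 kb to 73.4% over 4 kb, and rises decline from 36.4% to 6.80%. Regions whose peak vanished in darkness were not tested and are in neither panel.

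Starting level and width were also compared in classes of equal size. In the narrowest of 5 equal classes of control width, 23.2% of 3827 regions rose and 8.73% fell, and in the widest, 12.5% of 3819 rose and 45.5% fell. In the lowest of 5 equal classes of control level, with a median of 9.20 RPM, 22.5% of 3823 regions rose and 10.1% fell. In the highest class, with a median of 37.0 RPM, 17.4% rose and 38.4% fell. The highest class was also the widest, with a median called length of 2304 bp against 1216 bp. When the level was expressed per kb of called peak, the share of falls stayed between 21.1% and 24.4% in the upper 4 classes and was 12.9% in the lowest. With level and change from different replicates the median log2 ratio was 0.09 in the lowest class in both arrangements and −0.10 and −0.11 in the highest. Vanished regions, with a median of 8.18 RPM in the controls, were not tested and are in none of these classes. The shares of falls at low level and width therefore leave them out.

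Some peaks were called in 1 condition only. In 867 regions (3.51% of 24725) both starved libraries and neither control had a peak, and in 1646 (6.66%) both controls and neither starved library did. The remaining 3099 regions were mixed, among them 973 with a peak in 1 control only and 660 with a peak in 1 starved library only. The absence of a call is not an absence of reads, and no test was made on these classes. The excess of vanished over appeared peaks turned around when a fold enrichment of at least 5 was asked of both libraries, with 483 appeared and 426 vanished. Among tested regions the median fold enrichment was 7.53 and 7.43 in the controls and 8.63 and 8.41 in darkness. A fixed limit was thus not equal for both groups. With peak scores of at least 100 the excess remained, with 609 appeared and 1722 vanished.

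Peaks that vanished or appeared were weak and narrow. The median span was 1340 bp for vanished and 1040 bp for appeared regions, against 1625 bp for tested ones. Vanished peaks had a median of 8.18 RPM and a fold enrichment of 4.56 in the controls, where tested regions had 18.3 and 7.47. Appeared peaks had 8.74 and 5.54 in darkness, where tested regions had 18.7 and 8.52. The score that MACS assigns is 10 times the negative log10 of the p value, with its lower limit at 50. Of the regions whose weaker control peak scored 50 to 75, 40.3% vanished, and of those over 300, 0.35% did, or 37 of 10617. From the starved side, 24.6% of the regions scoring 50 to 75 and 5 of 7443 scoring over 300 had appeared.

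**Figure D3:**
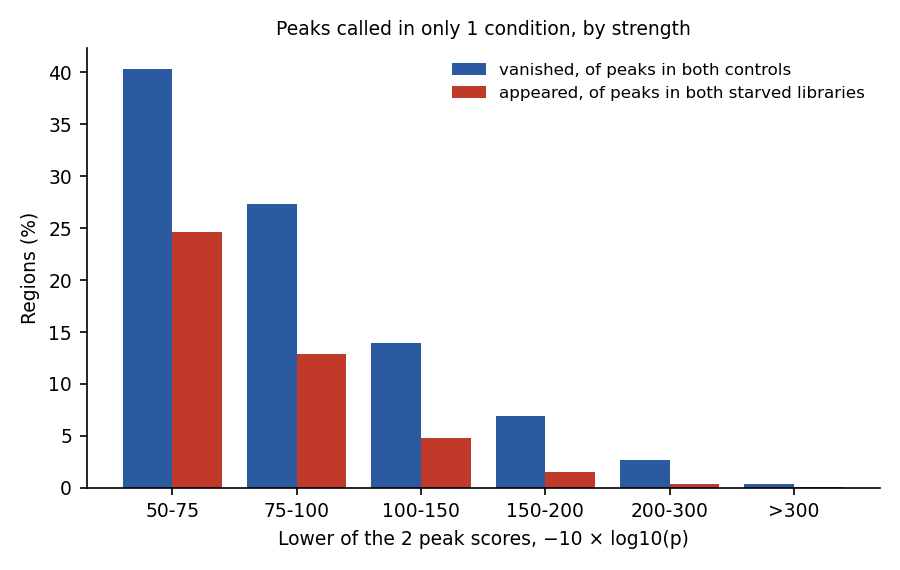
Share of regions that vanished among those with a peak in both controls (blue), and that appeared among those with a peak in both starved libraries (red), by the lower of the 2 peak scores (10 times the negative log10 of p). Vanished peaks decline from 40.3% at scores of 50 to 75 to 0.35% above 300, and appeared peaks from 24.6% to 0.07%.

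The 5 vanished peaks with the highest summed scores had 277 to 593 tags in each control. The strongest, at chr2:17880553-17882603, had 26.2 and 25.2 RPM in the controls, and Kbu and Kcr fell there, with log2 fold changes of −1.92 and −1.67 (edgeR adjusted p = 0.000126 and 0.0011). At chr2:27658426-27660758 the controls had 52.9 and 49.5 RPM and Kcr fell by 1.42 (edgeR adjusted p = 0.00301). Kbu could be tested in 3 of these 5 regions and Kcr in 4, and in each tested case it fell.

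The 5 appeared peaks with the highest scores were less uniform. At chr1:12091267-12093704 the starved libraries had 33.7 and 31.6 RPM, and Kbu rose by 1.16 and Kcr by 1.34 on the log2 scale (edgeR adjusted p = 0.000296 and 0.0114). The highest score was at chr1:40812346-40815546, with 89.0 and 81.3 RPM after darkness. Neither control had an H3K9ac peak there, although control Kbu peaks held 546 and 528 tags, and Kbu changed by −0.08 (edgeR adjusted p = 0.541). At chr5:1661782-1664775 and chr1:8084022-8087304 Kbu fell by 0.27 and fell by 0.32 (edgeR adjusted p = 0.0273 and 0.016), while Kcr rose by 0.46 at the former (edgeR adjusted p = 0.036). At chr2:4542010-4545153 the change of Kbu was −0.26 (edgeR adjusted p = 0.422). H3K9ac peaks lay over the latter 4 regions in the older plants at ZT12 in both libraries, with 753 to 2593 tags. The region at chr1:12091267-12093704 had peaks in both libraries at ZT0 (266 and 455 tags) and ZT18 (506 and 126 tags) and in none at ZT6 and ZT12. Both submerged libraries, which share the controls, also had H3K9ac peaks there, with 15.5 and 12.9 RPM. They had 84.3 and 71.1 RPM at chr5:1661782-1664775, where the starved ones had 74.9 and 75.6. At chr1:8084022-8087304 they had 74.8 and 70.8 RPM (starved 69.3 and 67.0), and at chr2:4542010-4545153 47.3 and 44.6 (starved 54.9 and 51.8). They had no peak at chr1:40812346-40815546. A region with a control peak lay within 5 kb of 59.3% of the 867 appeared regions, and a region with a starved peak within 5 kb of 48.1% of the 1646 vanished ones. Of the 11629 tested regions not called, 51.7% had any other region within 5 kb, so such closeness was common to all these classes.

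Rises and falls were not spread evenly over the 12 chromosomes. Rises were most frequent on chromosome 11, where 25.2% of 1122 tested regions rose and 14.6% fell, and least frequent on chromosome 3 with 14.4% of 2336. Falls were most frequent on chromosome 1, where 25.1% of 2577 regions fell and 15.0% rose, and least frequent on chromosome 12, where 13.2% of 1082 fell and 23.6% rose. These shares are from edgeR. In DESeq2, 3.21% rose and 3.12% fell on chromosome 11, and 2.68% and 3.05% on chromosome 12. There 1.90% rose and 7.80% fell on chromosome 1. Scaled by total aligned reads, falls exceeded rises on each chromosome. The share of appeared regions was highest on chromosome 8 (4.76% of its regions) and lowest on chromosome 2 (2.51%), and the share of vanished ones highest on chromosome 10 (7.38%) and lowest on chromosome 7 (5.58%). Among regions of 1 to 1.5 kb, 17.7%, 17.1%, 26.3% and 23.7% rose on chromosomes 1, 3, 11 and 12. The falls differed less there, with 12.3% on chromosome 1 and 8.33% on chromosome 12, and were most frequent on chromosome 10 with 13.1%.

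Crowding of regions went with these differences. In windows of 1 Mb with 40 or fewer H3K9ac regions, 26.9% of the tested regions rose and 13.3% fell, and in windows with over 100 regions, 12.6% rose and 27.3% fell. In DESeq2 these shares were 2.61% and 3.22% in the former and 1.55% and 8.07% in the latter, so falls exceeded rises in both. Scaled by total aligned reads, the median log2 fold change was −0.46 in the former and −0.65 in the latter. Control peaks were also wider in crowded windows, with medians of 1461 and 1628 bp. Among regions of 1 to 1.5 kb the rises still went from 25.6% to 16.5% and the falls from 9.24% to 13.7%. Kbu in the tested regions followed the same order, with a median log2 fold change of 0.12 in the sparsest and −0.03 in the most crowded windows. Within 0.5 Mb of the start of a chromosome or of the end of its last region, 22.8% of 824 regions rose and 14.6% fell.

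Neighbouring regions tended to be called in the same direction. When the preceding region, within 5 kb, had fallen, 35.4% of 1023 regions fell and 9.09% rose. When it had risen, 12.2% of 740 fell and 27.8% rose, and after a region that was not called these shares were 20.2% and 15.9%. Beyond 20 kb, 21.5% of 452 fell and 18.6% rose after a fall, 11.5% of 624 fell and 26.3% rose after a rise, and 18.8% fell and 22.3% rose after a region not called. Neighbours in 1 library are not independent, and these shares are a description.

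Among 330 windows of 1 Mb with at least 30 tested regions, the median log2 fold change of a window ran from −0.27 to 0.29. The lowest window was chr1:32000001-33000000, where 36 of 85 regions fell and 7 rose, and it holds the second of the 10 strongest falls. In chr9:17000001-18000000, 29 of 61 fell and 1 rose. The highest window was chr7:9000001-10000000, where 16 of 31 rose and 4 fell, followed by chr11:12000001-13000000 with 15 of 37 rising and 4 falling. These windows were picked after their values had been seen and are a description.

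**Figure D4:**
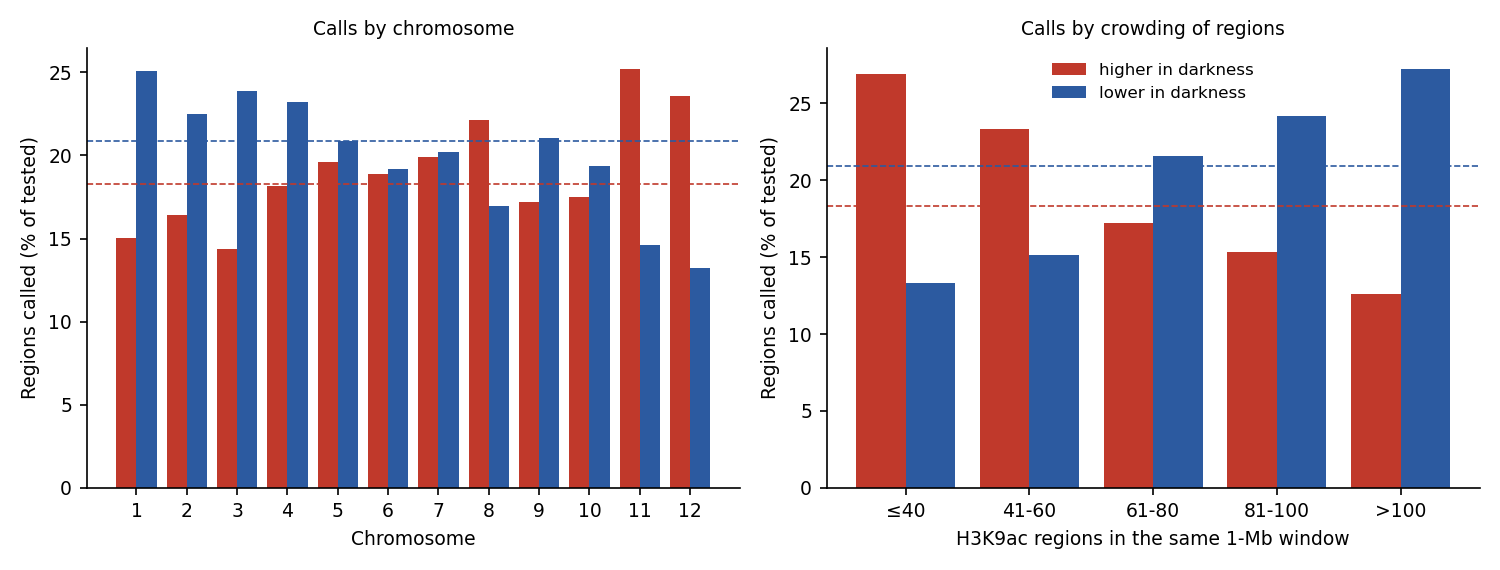
Share of tested regions called higher (red) or lower (blue) after darkness, by chromosome (left) and by the number of H3K9ac regions in the same 1-Mb window (right). Dashed lines give the shares over all tested regions. By edgeR, rises exceed falls on chromosomes 8, 11 and 12, and decline from 26.9% in the sparsest to 12.6% in the most crowded windows. In DESeq2, falls exceed rises on chromosomes 8 and 12 and in the sparsest windows.

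The acyl marks, measured in separate libraries, changed with H3K9ac. Over all regions with a Kbu peak in the 4 Kbu libraries, 22405 in number, edgeR called 1968 higher after darkness (8.78%) and 3087 lower (13.8%). In regions where H3K9ac rose, Kbu rose in 862 of 3333 (25.9%) and fell in 23. In regions where H3K9ac fell, Kbu fell in 1272 of 3902 (32.6%) and rose in 28. Where H3K9ac was not called, 865 of 11424 were higher and 496 lower in Kbu. DESeq2 called far fewer. It gave Kbu higher in 169 and lower in 5 of the rises, and lower in 507 and higher in 4 of the falls. In regions not called for H3K9ac it gave 45 higher and 89 lower.

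Vanished H3K9ac peaks had the strongest Kbu decrease, with 678 of 1203 lower (56.4%), 8 higher and a median log2 fold change of −0.47. Appeared peaks had 94 of 414 higher and 37 lower. The Kbu counts were less stable than those for H3K9ac, since without starvation replicate 2 only 417 regions were higher and 1234 lower, without starvation replicate 1 these were 504 and 1447, and without control replicate 1 they were 800 and 1740. DESeq2 called 294 and 1194, of which vanished regions had 3 and 354 and appeared ones 37 and 13. With the tags that MACS used as library sizes, 3269 were higher and 1575 lower.

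Kcr gave far fewer calls, 270 higher (1.21%) and 504 lower (2.25%) of 22392 regions. Of 3343 tested regions in which H3K9ac rose, 142 rose in Kcr and 0 fell in edgeR, with 18 lower at an unadjusted p under 0.05 and 1 lower in DESeq2. Of 3913 in which it fell, 225 fell and 7 rose. DESeq2 gave Kcr higher in 65 of the rises, and lower in 124 and higher in 4 of the falls. Among vanished H3K9ac peaks 173 of 1229 fell and 2 rose. The split over all regions turned to 1073 higher and 336 lower when the tags that MACS used were taken as library sizes. Without starvation replicate 1, 221 regions were lower, and without control replicate 2, 290.

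Most regions with a vanished H3K9ac peak had acyl peaks, though a smaller share than among tested regions. Of the tested regions, 98.0% had Kbu peaks in both controls and 98.6% in both starved libraries, and Kcr gave 98.2% and 98.5%. In both starved libraries, 75.3% of the vanished regions still had a Kbu peak and 76.9% a Kcr peak, against 87.4% and 87.3% in the controls. Of the appeared regions, 48.6% already had Kbu peaks in both controls and 67.2% had them after darkness. Kcr gave 47.2% and 66.1%.

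**Figure D5:**
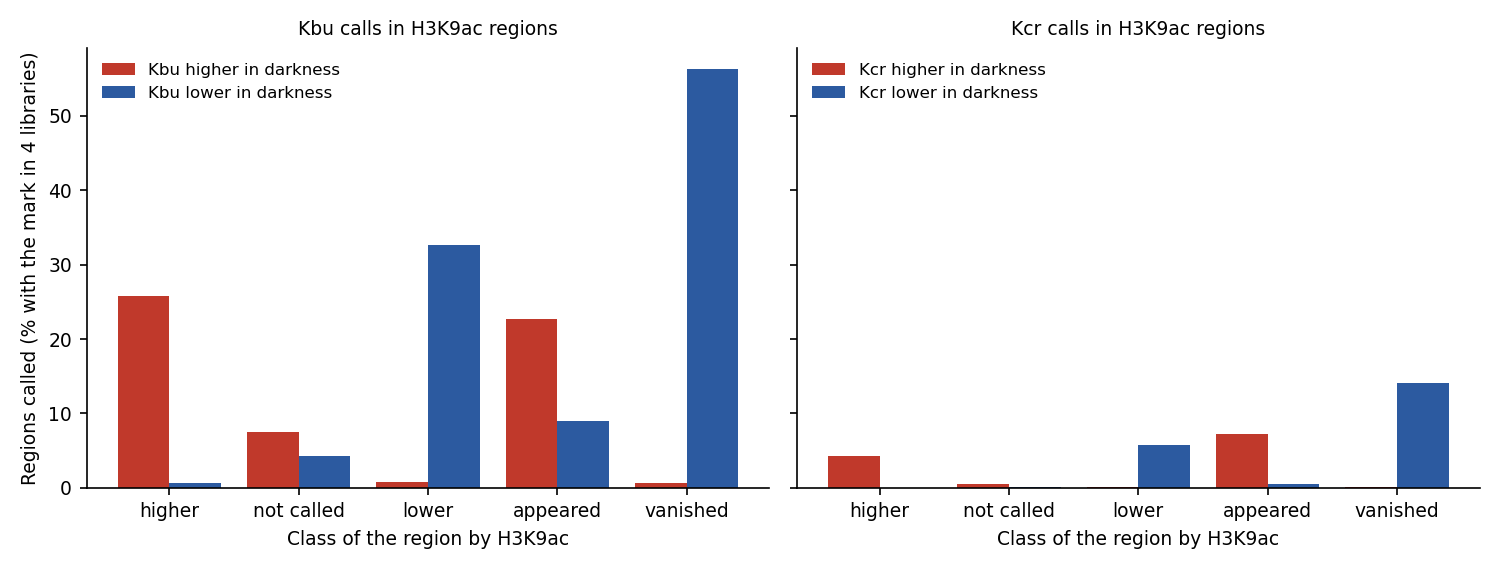
Share of H3K9ac regions in which Kbu (left) or Kcr (right) was called higher (red) or lower (blue) after darkness, of the regions with a peak of that mark in its 4 libraries, by the class of the region in H3K9ac. By edgeR, Kbu was lower in 56.4% of the vanished and 32.6% of the falling regions and higher in 25.9% of the rising ones. DESeq2 called fewer in each of these classes.

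The submerged seedlings share their controls with the starved ones, so values are given side by side without a comparison. Both submerged libraries had a peak in 97.6% of the tested regions, 54.7% of the vanished and 33.7% of the appeared ones. At chr5:27118641-27123093 the submerged libraries had 17.894 and 16.996 RPM, the controls 52.7 and 53.9 and the starved ones 5.33 and 4.94. At chr9:10740295-10743992 they had 7.54 and 4.89 RPM, with 5.76 and 4.84 in the controls and 38.5 and 35.6 after darkness. At chr6:20849047-20854023 the submerged libraries had 42.9 and 42.2 RPM, the starved ones 68.4 and 67.4 and the controls 13.9 and 12.9.

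In the older plants, both H3K9ac libraries had a peak in 89.0% to 93.7% of the tested regions, depending on the time of day. For vanished regions this share was 62.1% at ZT12 and 43.9% to 48.0% at the other 3 times, and for appeared regions it was 36.6% at ZT12 and 31.1% to 36.0% otherwise. ZT12 was the time of day at which the seedlings had been collected. MACS used 11116575 and 14809122 tags at ZT12 and from 5914314 to 16232431 at the other times, and the difference between times was not tested.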

How the data were processed

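ChIP-seq reads had been trimmed (Trimmomatic 0.33) and aligned (Bowtie2 2.2.5) and processed with SAMtools 0.1.19, according to the submitters' processing notes, to MSU7.0. The authors called peaks in each library with MACS 1.4.2 (p limit 1.00e-05, local background of 10000 bp, no control file). The deposited lists give, for each peak, the tag count, the fold enrichment (a ratio of the summit to the local background), a score (10 times the negative log10 of p) and the other measure used, its length.

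Peaks of the 4 libraries were merged where they overlapped by 1 bp or more, and tags were summed per region and library. Regions with a peak in all 4 libraries entered the quasi-likelihood test of edgeR 4.0.16 in R 4.3.3, with TMM factors. Log2 summit enrichment was tested with limma 3.58.1, and the Benjamini-Hochberg limit was 0.05. Kbu and Kcr peaks were given to the H3K9ac region that they overlapped most. With 2 libraries per group the smallest two-sided p of an exact permutation test is 0.333, so none was run. DESeq2 1.42.0, other library sizes, filters, replicate blocks and left-out libraries were tried, with total aligned reads taken from the study's alignment summary. In simulated data for the H3K9ac test on 19113 regions, 80% of 1.5-fold and 100% of 2-fold changes were recovered, with 4 false calls. The simulated counts had 1 common dispersion (0.000966) for all regions, and 100 regions were changed at each fold. The real data differ in both respects, so these values do not give the error rate of the calls reported here.

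Named regions were the 10 largest fold changes in each direction among those called by edgeR and past 1.5-fold in both replicates, the 5 appeared and 5 vanished peaks with the highest summed scores, and the chromosomes with the highest and lowest share of each class. The members and rules were chosen with earlier results of these data known. Tables were made with Python 3.11.15, pandas 2.3.3, numpy 2.4.6 and matplotlib 3.10.9. Genes, sequences and motifs were not analysed here, because the annotation at hand is on another assembly, and the tissue was therefore not checked against marker genes. Counts are reads without molecular identifiers, so a test covers counting error and the spread of these libraries only.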

Additional observations from a re-analysis of the deposited data

Results flagged for a closer look

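The input library, which was not used in any comparison, had peaks that overlapped 193 of the 24725 H3K9ac regions (0.78%), which is above 0. An input peak lay over 35 of 3497 rising, 20 of 3987 falling, 76 of 11629 not called, 7 of 867 appeared and 10 of 1646 vanished regions. Of the remaining 3099 regions it was 45 (1.45%), the highest share of these classes. Groups of 2 libraries are too small to test for a library that stands apart.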

How the results depend on the processing

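Of 104 counts under alternatives, 62 stayed within 1.5 times the value reported. For H3K9ac by edgeR, DESeq2 gave 415 higher and 1129 lower, aligned reads as library sizes gave 43 higher, and called length as an offset 9746 higher and 553 lower. Leaving out each library gave 2180 to 2923 higher and 2938 to 3655 lower. Thinning the tags inside called peaks to equal depth, chosen after seeing the data, gave 2827 and 3437, with calls and called lengths as deposited. The 1.5-fold rule gave 67 higher and 7474 lower on aligned reads, 1929 and 48 per kb of called peak, 126 and 418 at 2-fold, and 452 and 811 with scores of at least 100. With 1 replicate pair it gave 1142 to 1158 higher and 1741 to 1824 lower. Summit enrichment without centring gave 6611 higher and 773 lower, and leaving out each library 736 to 1903 and 594 to 2149. With a fold enrichment of at least 5, 483 regions appeared and 426 vanished, and leaving out each library gave 1088 to 1248 and 1951 to 2184. Scores of at least 100 gave 609 and 1722. Kbu gave 294 and 1194 with DESeq2, 3269 and 1575 with MACS tags, and 417 to 1446 and 1234 to 2762 without 1 library. Kcr gave 138 and 274, 1073 higher with MACS tags, and 182 to 234 and 221 to 561. The cause was not tested.

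The replicate numbers were not taken to pair the samples. Deviations of replicate 1 correlated with r = 0.10 over 19113 regions, with 2 pairs. With a replicate block, H3K9ac gave 3800 higher and 4266 lower, Kbu 3035 and 4001, Kcr 141 and 267, and summits 2721 and 2807. The 20 named rises and falls kept direction and call in each fit on the same merged regions in which they were tested, while the fits that keep 1 peak per library or add submergence left out 3 and 1 of them. Peaks were not called again at equal depth.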
